A study of Mus musculus with 4 samples.

Results

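Translation initiation factors are the proteins that bring an mRNA, a small ribosomal subunit and the initiator tRNA together and then let the large subunit join. The gene set described here was drawn from the genes named on the array. It held those whose annotated symbol begins with Eif followed by a digit from 1 to 6, except Eif2ak2, Eif2ak3, Eif4ebp1 and Eif2s3y. Eif1, Eif2s1, Eif3g and Eif4g1 are absent from it. The set comprised 43 genes of the 18194 named on the array. These genes had 122 probe sets of 45101 to themselves, and 3 more probe sets were annotated to both Eif3j2 and Eif3j1 and were kept out of the gene counts. RNA came from RAW264.7, a mouse macrophage-like tumour cell line, kept for 4 days in normoxia (NC) or in hypoxia with 1% O2 (HC), each without or with the cytokine IL6 at 25 ng/ml (NC+IL6 and HC+IL6). Each of the 4 conditions was read on 1 Affymetrix expression array.

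With 1 array per condition there was no replicate check, so no p-value is given and a difference is a difference between 2 arrays. The number of arrays is what limits the precision. The arrays measured bulk RNA scaled to a common mean, so fewer cells and less RNA per cell cannot be told apart. The 10 macrophage markers examined (among them Adgre1, Csf1r and Cd68) were above background on every array. No listed T cell, B cell, fibroblast or endothelial marker was, and of the epithelial list 1 gene, Epcam, passed on at least 1 array, with a summed epithelial signal of 79.9 to 237 against 137354 to 147174 for the macrophage list.

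In initiation, eIF4E binds the cap of the mRNA, the scaffold eIF4G holds it to eIF3 on the small subunit, and the helicase eIF4A with eIF4B and eIF4H unwinds the leader. eIF2 with bound GTP carries the initiator tRNA, eIF1 and eIF1A keep the scanning ribosome open, and eIF5 triggers GTP hydrolysis at the start codon. eIF2B then recharges eIF2, and stress kinases block this step by phosphorylating eIF2. eIF4E-binding proteins, held off by mTORC1, compete with eIF4G, and both brakes are textbook responses of cells to low oxygen.

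Values below are log2 MAS5 signals as deposited, and each gene is represented by its brightest probe set. A gene counted as measured in a comparison when the brighter of its arrays was above a background floor, the 95th percentile of tissue-restricted genes, which lay at a log2 signal of 6.94 and 6.95 in normoxia (without and with IL6) and of 7.24 and 7.35 in hypoxia. Of the 43 genes, 41 were above the floor on all 4 arrays. The exceptions were under it on all of them. Eif4a3, a helicase of the exon junction complex, read 5.16, 3.13, 2.34 and 2.40 on the NC, NC+IL6, HC and HC+IL6 arrays, the order kept for every run of 4 values below. Eif5a2, the rarer eIF5A gene, read 5.71, 4.85, 5.39 and 5.35. Neither enters the counts that follow.

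**Figure D1:**
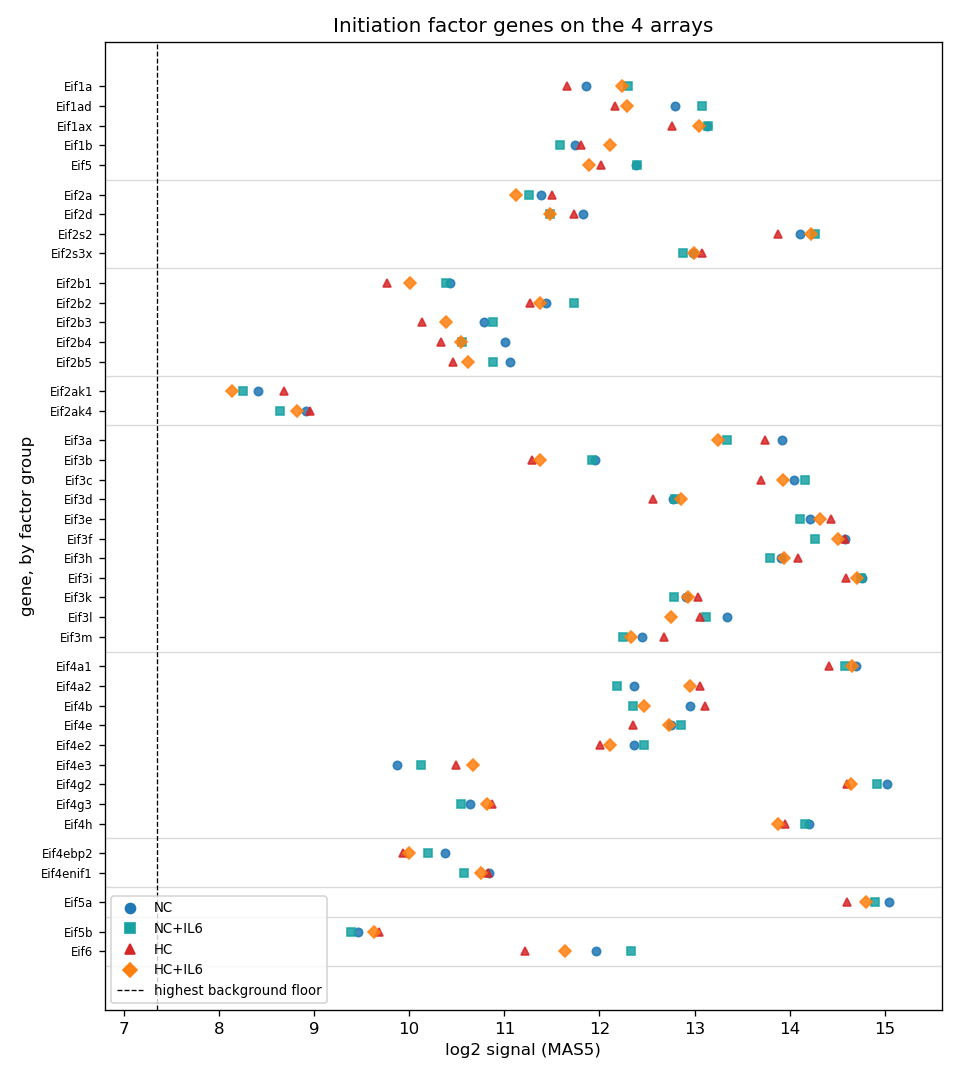
Log2 MAS5 signal (x axis) of the 41 initiation factor genes above background on all arrays (y axis, by factor group, a line between groups), with 1 point per array and the highest background floor dashed. Points of one gene may be compared with each other but not with those of another gene, and Eif6 spans the widest range, 1.12 log2 units.

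No initiation factor gene of the set reached a 2-fold difference in any of the 4 comparisons, in either direction. For IL6 this rests on the rule of the set, which leaves out Eif2ak2 and Eif4ebp1. They were 2.20- and 2.17-fold higher with IL6 in normoxia, and Eif4ebp1 was 2.40-fold higher with IL6 in hypoxia. Among all measured genes, 3.59% were at least 2-fold higher and 1.04% lower in HC than in NC, and 2.66% and 1.29% in HC+IL6 than in NC+IL6. With IL6, the shares were 3.28% higher and 1.01% lower in normoxia (NC+IL6 against NC), and 2.23% and 1.66% in hypoxia (HC+IL6 against HC). The range of a gene over the 4 arrays ran from 0.17 log2 units for Eif3i to 1.12 for Eif6, with a median of 0.44 against 0.56 over all genes above background on every array. Of the 41 genes, 24 had a range under 0.5. Neither the ranges nor the 2-fold shares were matched for signal level, and 35 of the 41 genes read over 10 on every array. Whether the smaller range is particular to the set was not tested.

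A 1.5-fold threshold separated a few genes. Between HC and NC, 2 of 41 initiation factor genes were higher by this measure (4.88%), the helicase gene Eif4a2 and the cap-binding gene Eif4e3, where the share of all genes was 12.5%. In the same comparison 7 genes were lower (17.1%), where the share of all genes was 6.72%. They were Eif1ad, Eif3b, Eif6 and the eIF2B subunit genes Eif2b1, Eif2b3, Eif2b4 and Eif2b5. Against the 1.5-fold limit of 0.58 on the log2 scale, Eif1ad fell short after quantile normalization (-0.52) and cyclic loess (-0.53), and Eif4e3 after quantile normalization (0.55). Eif2b5, close to the limit at -0.60, was not followed under these normalizations. With IL6 present, 1 gene was higher in hypoxia (Eif4a2, 2.44% against 10.7% of all genes) and 2 were lower (Eif1ad and Eif6, 4.88% against 6.12%). IL6 gave 1 gene lower by 1.5-fold in normoxia and 1 in hypoxia, Eif4b both times, and none higher. Eif2ak2 and Eif4ebp1, left out of the set, were higher by more than 1.5-fold with IL6 in both. After cyclic loess the normoxic ratio of Eif4b was -0.57, short of the limit. The shares of all genes were 8.15% higher and 6.2% lower in normoxia, and 7.39% higher and 7.82% lower in hypoxia.

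As a set, the initiation factor genes lay lower in HC than in NC, with a median log2 ratio of -0.20 and 26 of 41 genes negative (63.4%). The median of all measured genes was 0.04, with 47.1% negative. With IL6 the hypoxia median was -0.07 (24 of 41 negative, 58.5%) against 0.01 and 49.1% for all genes. Signal level moved with these values: all genes with a mean log2 signal of 12 to 14 had a median of -0.11 between HC and NC, while the 16 initiation factor genes in that range had -0.20. The share negative there was alike, 10 of 16 genes against 63.5% of all. Of those from 10 to 12, all genes had -0.01 and 14 initiation factor genes -0.31, and from 14 to 16 the medians were -0.10 and -0.24 (8 genes). From 8 to 10 the order was turned, with 0.09 for all genes and 0.22 for 3 initiation factor genes, none of them negative. After cyclic loess normalization, which removes such a trend, the median of the set between HC and NC was -0.088, against -0.013 for all genes. There 26 of 41 genes were negative. With IL6 present, the hypoxia median after cyclic loess was -0.022 against -0.037 for all genes, with 21 of 41 negative. After quantile normalization it was -0.039 against -0.037. The lower median of the set with IL6 was thus not kept relative to all genes under these normalizations. What part signal level has in the shift was not tested.

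**Figure D2:**
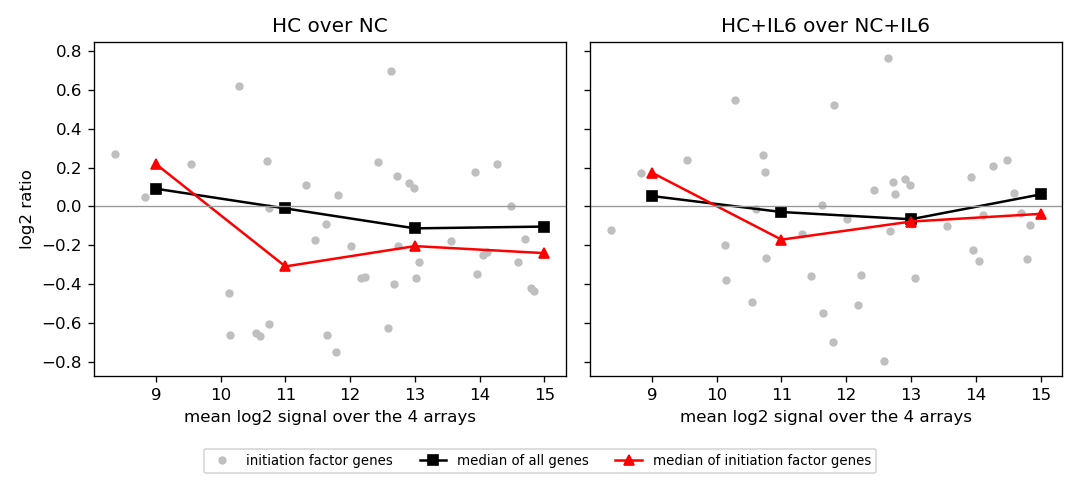
Log2 ratio (y axis) against mean log2 signal over the 4 arrays (x axis) for HC over NC (left) and HC+IL6 over NC+IL6 (right). Grey points are the 41 initiation factor genes, and lines join the medians of all genes (black squares) and of initiation factor genes (red triangles) in bins 2 log2 units wide. Between HC and NC the red median lies under the black in the bins from 10 upward.

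Probe sets of one gene were read from the same RNA and arrays. Their spread shows how far probe sets differ, and it holds no difference between cultures or arrays. Over all genes with several probe sets above background, the pooled SD of the log2 ratio between probe sets of a gene was 0.32 between HC and NC and 0.31 between HC+IL6 and NC+IL6. It was 0.26 for IL6 in normoxia and 0.29 for IL6 in hypoxia. By this scale 2 initiation factor genes lay above and 15 below the spread between HC and NC, and 3 above and 9 below with IL6 present. The share past the spread, 41.5% and 29.3%, was under that of all genes, 47.3% and 44.7%. Of 28 initiation factor genes with several measured probe sets, 16 had all of them on the same side of 0 between HC and NC.

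The eIF2B subunit genes had negative hypoxia ratios without and with IL6, but not all were past the spread between probe sets. Without IL6, Eif2b2 (-0.17) lay within the spread of 0.32. With IL6, Eif2b4 (-0.01) and Eif2b5 (-0.26) lay within that of 0.31. eIF2B is the exchange factor that returns eIF2 to its GTP-bound state, a complex of 5 kinds of subunit, of which epsilon is the catalytic one. Eif2b1 (alpha) read 10.42 in NC and 10.38 in NC+IL6, against 9.77 in HC and 10.01 in HC+IL6. Eif2b3 (gamma) read 10.78, 10.88, 10.13 and 10.39 on the same arrays. Eif2b5 (epsilon) read 11.06, 10.88, 10.46 and 10.62. In all 3 genes both hypoxic arrays lay below both normoxic arrays.

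Eif2b4 (delta) read 11.01 in NC and 10.56 in NC+IL6, against 10.34 in HC and 10.55 in HC+IL6, so that the IL6 arrays were level with each other and only the NC array stood above. Eif2b2 (beta) read 11.44, 11.73, 11.27 and 11.37, with the hypoxic arrays again lowest but by less. The log2 ratios of HC over NC were -0.66, -0.17, -0.65, -0.67 and -0.60 for Eif2b1 to Eif2b5, which is 1.58-, 1.13-, 1.57-, 1.59- and 1.52-fold lower. With IL6 they were -0.38, -0.36, -0.49, -0.01 and -0.26. The median was -0.65 without IL6 and -0.36 with it, and all 5 ratios were negative in both comparisons. Of these genes, Eif2b1, Eif2b3 and Eif2b4 rest on 1 probe set each. Eif2b5 also rests on 1 measured probe set, since its other was under the floor on all arrays. Eif2b2 has 3, all negative in both hypoxia comparisons, from -0.17 to -0.56 without IL6. Within hypoxia, IL6 went with higher signal for all 5 subunits (median 0.21), while in normoxia their median was -0.04.

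Of eIF2 itself, the substrate of eIF2B, the genes of the beta and gamma subunits were in the set. Eif2s2, the beta subunit, read 14.11 in NC and 14.26 in NC+IL6, against 13.87 in HC and 14.22 in HC+IL6, and HC was the low array. All 5 probe sets of Eif2s2 were higher with IL6 in normoxia, by log2 ratios of 0.15 to 0.52. Between HC and NC they ran from -0.60 to 0.04, and the brightest gave -0.23. Eif2s3x, the gamma subunit encoded on the X chromosome, read 12.99, 12.88, 13.08 and 12.99. Its hypoxia ratios were 0.10 without and 0.11 with IL6. Eif2a and Eif2d encode separate proteins that can bring tRNA to the ribosome without eIF2, and their ratios of HC over NC were 0.11 and -0.09. A dimmer probe set of Eif2d gave 0.68. IL6 gave Eif2a -0.13 in normoxia and -0.38 in hypoxia, and Eif2d -0.35 and -0.25. The group median between HC and NC was 0.00.

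Both eIF2 kinase genes in the set were measured. Eif2ak1, the heme-regulated kinase, read 8.41 in NC and 8.26 in NC+IL6, against 8.68 in HC and 8.13 in HC+IL6. The HC array was highest and HC+IL6 lowest, a log2 ratio of -0.55 for IL6 in hypoxia. Of its other probe sets, 1 gave -0.41, and another, near the floor, read 6.85, 7.17, 7.45 and 7.51, with HC+IL6 highest and a ratio of 0.07. Eif2ak4 (GCN2), which senses uncharged tRNA, had ratios of 0.05 and 0.17 for hypoxia without and with IL6. The 2 kinases left out of the set were examined beside them. Eif2ak2 (PKR), the kinase activated by double-stranded RNA and an interferon target, read 9.18 in NC and 10.32 in NC+IL6, against 9.02 in HC and 9.72 in HC+IL6, both IL6 arrays above both others. Eif2ak3 (PERK), the kinase of the endoplasmic reticulum, read 9.84, 9.86, 9.99 and 9.89. Ppp1r15a (GADD34), which directs a phosphatase to eIF2, read 7.77, 8.82, 8.02 and 8.67, with a log2 ratio of 1.05 for IL6 in normoxia and 0.65 in hypoxia.

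**Figure D3:**
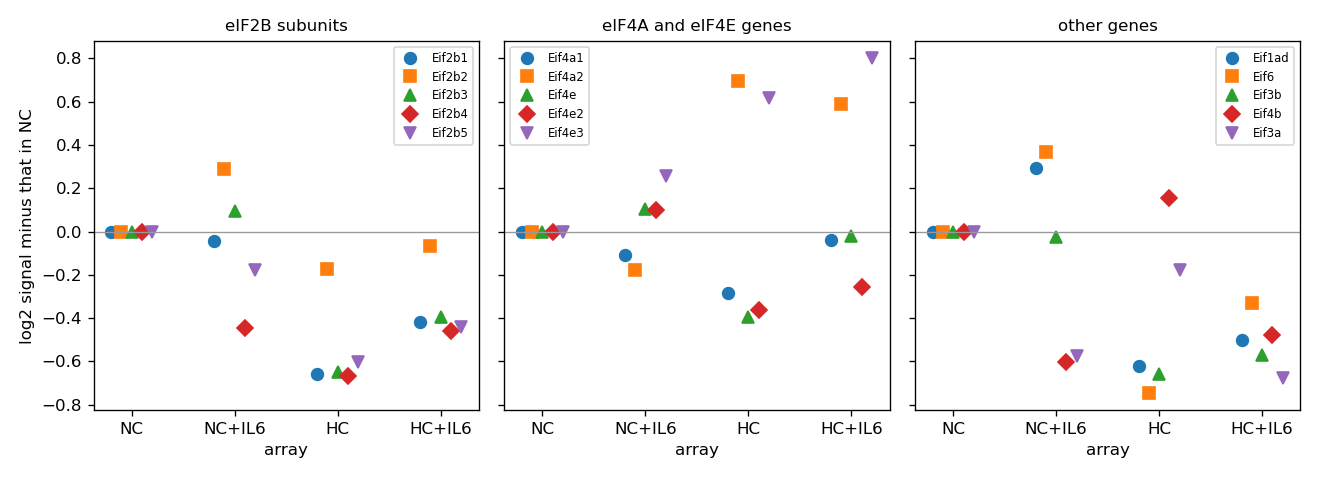
Log2 signal minus that in NC (y axis) on each array (x axis) for the 5 eIF2B subunit genes (left), the eIF4A and eIF4E genes (middle) and 5 other initiation factor genes (right), with 1 point per gene and array and NC at 0 by construction. In HC, Eif2b1, Eif2b3, Eif2b4 and Eif2b5 lie together near -0.65, whereas Eif4a2 and Eif4e3 lie at 0.70 and 0.62.

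The helicase eIF4A is made from a pair of closely related genes, and their signals differed in direction between HC and NC. Eif4a1 read 14.69 in NC and 14.58 in NC+IL6, against 14.41 in HC and 14.65 in HC+IL6. Eif4a2 read 12.36, 12.18, 13.06 and 12.95, both hypoxic arrays above both normoxic ones. Its log2 ratio was 0.70 without IL6 (1.62-fold) and 0.77 with it (1.70-fold). That of Eif4a1 was -0.29 and 0.07. The difference between the genes' log2 ratios, Eif4a2 minus Eif4a1, was thus 0.98 without and 0.69 with IL6. The spread between probe sets of one gene was 0.32 and 0.31 for a single ratio, and would be wider for a difference between genes. The 3 probe sets of Eif4a1 gave -0.28 to -0.34 between HC and NC, and Eif4a2 has 1 probe set. For IL6, the same difference was -0.07 in normoxia and -0.35 in hypoxia.

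Because these paralogs had hypoxia ratios so far apart, the 250 bases before their annotated transcription starts are shown, from RefSeq on GRCm38.p6, 5′ to 3′ on the strand of the gene. Eif4a1 lies on the minus strand (chr11:69672424-69672673) and Eif4a2 on the plus strand (chr16:23107218-23107467). Capitals mark the core of the hypoxia response element, ACGTG or GCGTG, read on either strand. In Eif4a1 the capitals also spell an E-box, CACGTG, in which the core is read on both strands. In Eif4a2 they are the reverse complement of GCGTG.
Eif4a1: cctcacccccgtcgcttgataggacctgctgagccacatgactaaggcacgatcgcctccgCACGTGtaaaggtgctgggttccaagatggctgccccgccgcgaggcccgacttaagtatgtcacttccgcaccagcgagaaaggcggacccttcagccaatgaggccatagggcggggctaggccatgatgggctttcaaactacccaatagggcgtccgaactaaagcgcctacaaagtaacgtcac
Eif4a2: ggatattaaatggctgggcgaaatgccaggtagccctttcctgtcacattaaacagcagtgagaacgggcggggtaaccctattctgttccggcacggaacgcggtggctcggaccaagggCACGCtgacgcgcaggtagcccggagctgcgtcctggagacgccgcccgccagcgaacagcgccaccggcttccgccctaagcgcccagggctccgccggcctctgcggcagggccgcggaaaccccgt

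Both promoters thus hold the core, although the genes' hypoxia ratios had opposite signs without IL6. The motif is common. Over the window of 250 bases before and 50 after the start, 37 of 48 promoters of 35 initiation factor genes held ACGTG or GCGTG (77.1%), against 43.8% of 32851 mouse promoters. The E-box CACGTG, which contains ACGTG, was in 11 of the 48 (22.9%) against 7.15% of all, and its 9 genes included Eif4a1, Eif4e, Eif4h and Eif5a. The ATF4 motif TGATGNAA was in 1 (Eif2s3x, 2.08%) against 3.97%. Several promoters belong to one gene, and 8 genes of the set had no promoter in the table used. The core and the E-box both hold a CG, and the promoters compared were not matched for base or CG content. What part that content has in the higher shares was not tested. A match of so few letters is a description of the sequence, and a missing match says only that these letters are not in the window.

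The hypoxia ratios of the cap-binding genes also differed in sign by their brightest probe sets. Eif4e, the cap-binding factor of initiation, read 12.75 in NC and 12.86 in NC+IL6, against 12.35 in HC and 12.73 in HC+IL6, with HC the low array. Eif4e2 (4EHP), which binds the cap without supporting eIF4G, read 12.36, 12.46, 12.001 and 12.11, both hypoxic arrays below the normoxic ones. Eif4e3 read 9.87, 10.13, 10.49 and 10.67, both hypoxic arrays above the normoxic ones. Its log2 ratio for hypoxia was 0.62 without IL6 (1.54-fold) and 0.55 with it, and its other probe set gave 0.43 and 0.28. The ratios of Eif4e were -0.40 and -0.13, and those of Eif4e2 -0.36 and -0.35. Dimmer probe sets of Eif4e above background on all arrays lay nearer 0 without IL6, at -0.07 and -0.06, and 1 of them gave 0.72 with IL6. For Eif4e2 the second probe set gave -0.26 and -0.16, and another, dimmer one 0.22 and 0.05.

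The scaffold genes showed a smaller split. Eif4g2 (DAP5), which lacks the eIF4E-binding part, read 15.02 in NC and 14.91 in NC+IL6, against 14.61 in HC and 14.64 in HC+IL6. Eif4g3, a close relative of the main eIF4G gene, read 10.64, 10.55, 10.87 and 10.81. The hypoxic arrays were lower for Eif4g2 (-0.42 without and -0.27 with IL6) and higher for Eif4g3 (0.23 and 0.27). The helicase partner Eif4h read 14.20, 14.16, 13.95 and 13.88, a hypoxia ratio of -0.25 without and -0.28 with IL6. Over the 9 eIF4 genes above background, the median was -0.25 between HC and NC and 0.07 with IL6 present. Neither value is stable. Between HC and NC it was -0.082 after cyclic loess and 0.16 without suffixed probe sets, and with IL6 it was -0.032 after quantile normalization and -0.028 with no floor.

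Eif4b, whose protein stimulates eIF4A, was the one member past 1.5-fold with IL6. It read 12.95 in NC and 12.35 in NC+IL6, against 13.11 in HC and 12.47 in HC+IL6, both IL6 arrays below both others. The log2 ratio for IL6 was -0.60 in normoxia (1.52-fold lower) and -0.63 in hypoxia (1.55-fold lower). Its other probe sets gave -0.40 and -0.22 in normoxia and -0.47 and -0.32 in hypoxia, of the same sign throughout. Hypoxia gave it 0.16 and 0.13.

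Proteins that hold eIF4E back were represented by Eif4ebp2 and Eif4enif1 (4E-T, which carries eIF4E into the nucleus). Eif4ebp2 read 10.38 in NC and 10.20 in NC+IL6, against 9.94 in HC and 10.00 in HC+IL6, the hypoxic arrays lower by this probe set (-0.44 and -0.20). Its other, dimmer probe set read 7.26, 7.59, 7.73 and 7.72 and had the opposite sign, 0.47 and 0.14, so no direction is given for the gene. Eif4enif1 read 10.84, 10.58, 10.83 and 10.75. Eif4ebp1, the best-known binding protein, stood outside the set and read 12.59, 13.71, 12.30 and 13.57. Its log2 ratio for IL6 was 1.12 in normoxia and 1.26 in hypoxia, while Eif4ebp2 had -0.18 and 0.07 by its brighter probe set and 0.33 in normoxia by the dimmer one.

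**Figure D4:**
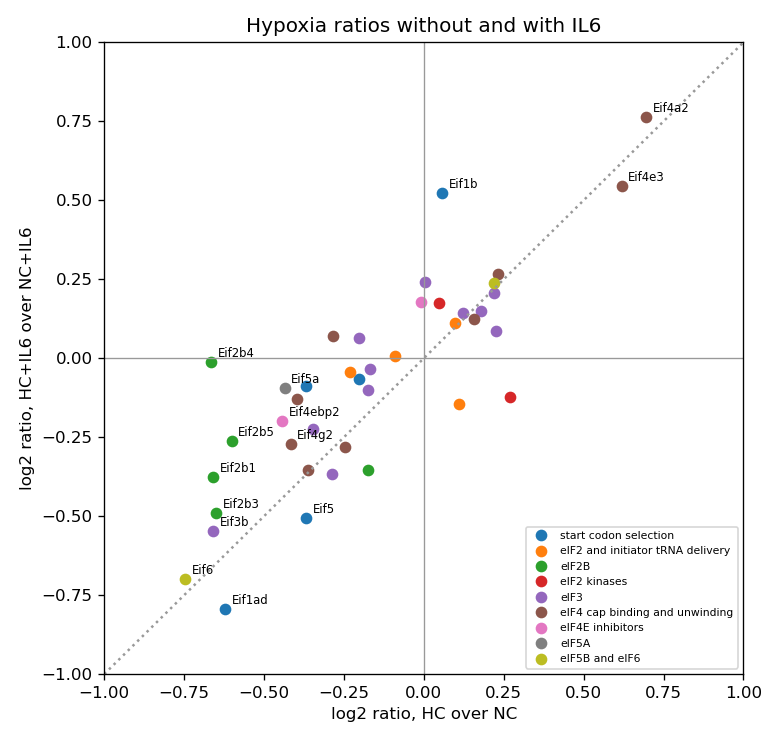
Log2 ratio of HC over NC (x axis) against HC+IL6 over NC+IL6 (y axis) for the 41 initiation factor genes, coloured by factor group, with the dotted line of equal ratios and names for genes at 0.4 or more on either axis. Eif4a2 and Eif4e3 lie at the upper right, Eif6 and Eif1ad at the lower left, and 4 of the eIF2B genes lie above the dotted line.

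The genes of ribosome joining had hypoxia ratios of opposite sign. Eif6, whose protein keeps the large subunit from joining too early and takes part in its maturation, read 11.97 in NC and 12.33 in NC+IL6, against 11.22 in HC and 11.64 in HC+IL6. Eif5b, the GTPase of subunit joining, read 9.46, 9.39, 9.68 and 9.63. The hypoxic arrays were lower for Eif6 (-0.75 and -0.70, or 1.68- and 1.62-fold) and slightly higher for Eif5b (0.22 and 0.24, its other probe set 0.13 and -0.06). IL6 gave Eif6 0.37 in normoxia and 0.42 in hypoxia. The other probe set of Eif6 had the same signs, with -0.23 and -0.28 for hypoxia and 0.41 and 0.36 for IL6.

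Of the genes of start codon selection, Eif1ad stood out. It is named for its similarity to eIF1A, and its part in initiation is less settled. It read 12.79 in NC and 13.08 in NC+IL6, against 12.17 in HC and 12.29 in HC+IL6, hypoxic arrays lower by 1.54-fold without and 1.74-fold with IL6. Its other probe set gave log2 ratios of -0.44 and -0.19. Eif5, the GTPase-activating factor, read 12.39, 12.40, 12.02 and 11.89, also lower on both hypoxic arrays (-0.37 and -0.50). Of its 5 probe sets, the dimmest alone had the opposite sign (0.26 and 0.39).

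Probe sets of the eIF1A genes differed from each other. Eif1a read 11.86 in NC and 12.30 in NC+IL6, against 11.66 in HC and 12.24 in HC+IL6, with IL6 ratios of 0.44 and 0.58. Its other probe set gave 0.04 in normoxia and 0.39 in hypoxia, so the normoxic difference rests on 1 probe set, and its hypoxia ratio with IL6 was 0.25 against -0.07. Eif1ax read 13.13, 13.14, 12.76 and 13.05, with HC the low array and an IL6 ratio of 0.01 in normoxia and 0.29 in hypoxia. Its other probe set read 9.42, 8.68, 9.50 and 9.04, with HC the high array, IL6 ratios of -0.75 and -0.46 and hypoxia ratios of 0.08 and 0.37, so the probe sets of Eif1ax disagree. Eif1b, a close relative of eIF1, read 11.75, 11.59, 11.81 and 12.11, highest in HC+IL6. Its hypoxia ratio was 0.06 without IL6 and 0.52 with it. The group median between HC and NC was -0.37, and -0.09 with IL6.

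The genes of the scaffold eIF3 had ratios of both signs. Of its 11 subunit genes above background, 5 had positive ratios in both hypoxia comparisons (Eif3e, Eif3f, Eif3h, Eif3k and Eif3m), 5 had negative ones (Eif3a, Eif3b, Eif3c, Eif3i and Eif3l) and 1, Eif3d, changed sign. The positive ratios, at most 0.24, all lay within the spread between probe sets (0.32 without and 0.31 with IL6). So did the ratios of Eif3a, Eif3d and Eif3i. Only Eif3b was past the spread in both comparisons, so most of these signs are not firm. The group median was -0.17 without IL6 and 0.06 with it. Eif3b, a core subunit, read 11.95 in NC and 11.93 in NC+IL6, against 11.29 in HC and 11.38 in HC+IL6, both hypoxic arrays lower, on 1 probe set. Eif3c, another core subunit, read 14.04, 14.16, 13.70 and 13.93. Their hypoxia ratios were -0.66 and -0.55 for Eif3b and -0.35 and -0.23 for Eif3c, of whose 4 probe sets 1 gave 0.34 with IL6. Eif3l read 13.34, 13.12, 13.05 and 12.75, negative in all 4 comparisons by its brightest probe set. Its other measured probe set was positive between HC and NC (0.35) and for IL6 in normoxia (0.40). That probe set gave -0.97 for hypoxia with IL6 and -0.91 for IL6 in hypoxia. Eif3m had 0.23 and 0.09 for hypoxia, and Eif3f 0.00 and 0.24.

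For IL6, 7 of the 11 eIF3 genes were negative in both comparisons, 2 positive and 2 mixed. Eif3a, the largest subunit, read 13.92 in NC and 13.34 in NC+IL6, against 13.74 in HC and 13.24 in HC+IL6, both IL6 arrays lower (-0.58 and -0.50). Its other 3 probe sets do not show this. They gave -0.24 to 0.03 in normoxia and -0.02 to 0.06 in hypoxia. The group median for IL6 was -0.12 in normoxia and -0.11 in hypoxia.

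Growth-linked mRNAs of the translation machinery often begin with a run of pyrimidines after an initial C, a feature through which mTORC1 acts on their translation. The hypoxia ratios of eIF3 had both signs, most of them within the spread between probe sets. To set the run of pyrimidines beside them, 30 bases around the annotated start (10 before and 20 after) are shown. They are given for 8 eIF3 genes and for Eif2s3x, with the run in capitals. They were read from RefSeq on GRCm38.p6 in the direction of the gene. Negative hypoxia ratios were found in Eif3a (chr19:60790674-60790703, minus strand), Eif3b (chr5:140419295-140419324, plus strand), Eif3c (chr7:126566347-126566376, minus strand) and Eif3l (chr15:79075213-79075242, plus strand). Positive or mixed ratios were found in Eif3d (chr15:77970805-77970834, minus strand), Eif3f (chr7:108934405-108934434, plus strand), Eif3k (chr7:28981869-28981898, minus strand) and Eif3m (chr2:105017008-105017037, minus strand). Eif2s3x lies at chrX:94212632-94212661, minus strand.
Eif3a: ctcgggcggcggcgctgccgccgcgaggga
Eif3b: ggcgcgcggtgacttctgggagtcggaagc
Eif3c: ctgctcagagggactcggcagcttagctgg
Eif3l: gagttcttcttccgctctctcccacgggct
Eif3d: agggccatttacgacagcgctggtcgccgt
Eif3f: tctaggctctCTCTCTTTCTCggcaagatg
Eif3k: aaccggcgctggtgctgaaagcgcctttcc
Eif3m: cggtcggcgtgtttctggatcggagcgtct
Eif2s3x: gagcattttcCTTTTCTCTCCgagcaagat
A C at the start followed by at least 4 pyrimidines was found in 2 of 48 initiation factor promoters (4.17%), those of Eif3f and Eif2s3x, and in 2.51% of all. With 2 genes no relation to the ratios can be read, and the annotated start may not be the one used in these cells.

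eIF5A, which carries the modified amino acid hypusine and helps ribosomes through difficult stretches as well as at the start, was represented by Eif5a. It read 15.04 in NC and 14.89 in NC+IL6, against 14.61 in HC and 14.80 in HC+IL6, a hypoxia ratio of -0.44 without and -0.09 with IL6. Its other probe set read 12.90, 13.02, 12.23 and 12.41, with ratios of -0.66 and -0.61, so the smaller ratio with IL6 depends on the probe set. The enzymes that make hypusine lie outside the set. Dhps read 10.25, 10.45, 9.35 and 9.59, and Dohh read 10.22, 10.58, 9.49 and 10.13. Both were lower on the hypoxic arrays. The ratios were -0.90 and -0.87 for Dhps and -0.74 and -0.45 for Dohh.

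Hypoxia without and with IL6 was read on separate pairs of arrays. Over the 41 genes the log2 ratios of these comparisons had a Pearson r of 0.83 and a Spearman rho of 0.78, and 35 (85.4%) had the same sign, 13 positive and 22 negative. Over all 8654 genes measured in both, r was 0.65 and 75.4% had the same sign. These are correlations across genes, which are not independent replicates. The ratio with IL6 was closer to 0 in 26 of the 41 genes. This count was not made over all genes, so whether it is particular to the set was not tested. The difference, with IL6 minus without, ran from -0.39 to 0.65 and was most positive for Eif2b4. Its median was 0.10, against -3.85e-05 over all 8654 genes. The IL6 comparisons, also on separate arrays, had an r of 0.69 and a rho of 0.64, and 30 of 41 genes (73.2%) had the same sign, against 0.68 and 71.5% of all genes. Their medians were -0.10 in normoxia and 0.07 in hypoxia, against -0.03 and -0.03 for all genes.

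**Figure D5:**
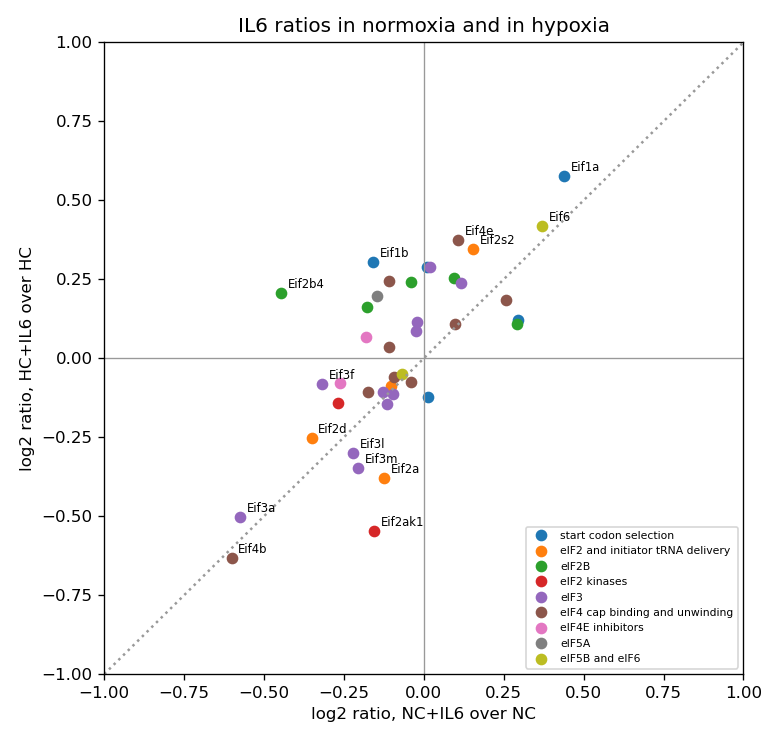
Log2 ratio of NC+IL6 over NC (x axis) against HC+IL6 over HC (y axis) for the 41 initiation factor genes, coloured by factor group, with the dotted line of equal ratios and names for genes at 0.3 or more on either axis. Eif4b and Eif3a lie at the lower left and Eif1a and Eif6 at the upper right.

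Other genes of translation control were counted from lists of 53 genes, 50 on the array. Of the 47 above background between HC and NC, 2 were at least 2-fold higher and none lower, where the shares of all genes were 3.59% and 1.04%. Pdcd4, an inhibitor of eIF4A, read 8.94 in NC and 8.02 in NC+IL6, against 10.49 in HC and 9.18 in HC+IL6. It was higher in hypoxia by a log2 ratio of 1.55 without and 1.15 with IL6, and lower with IL6 by ratios of -0.92 and -1.31. Ddit4 (REDD1), which restrains mTORC1 under low oxygen, read 9.15, 10.91, 10.80 and 10.76, so that NC stood alone below the other arrays. With IL6 present, 1 gene of 47 was 2-fold higher in hypoxia (Pdcd4) and none lower, against 2.66% and 1.29% of all genes. IL6 in normoxia gave 5 of 47 higher (Eif4ebp1, Eif2ak2, Ppp1r15a, Ddit4 and Eef2k, the kinase of elongation factor 2) and none lower. The shares of all genes were 3.28% and 1.01%. Of the 5, Eif4ebp1 and Eif2ak2 were left out of the set by its rule, and the lists were chosen with earlier results of these data known. IL6 in hypoxia gave 1 higher (Eif4ebp1) and 1 lower (Pdcd4) of 46, against 2.23% and 1.66% of all genes.

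The elongation list, 7 genes measured, had a median of -0.12 between HC and NC and -0.19 with IL6. It holds the kinase gene Eef2k beside factor genes, and the median with IL6 is the ratio of Eef1e1. With IL6 present, Eef1a1 (0.17), Eef1b2 (0.14) and Eef2 (0.30) were higher in hypoxia. Eef1d (-0.35), Eefsec (-0.49) and Eef2k (-0.96) were lower. The sign of this median thus depends on the list, and no direction is given for elongation factors. The 7 measured termination and recycling factors had -0.26 and -0.05. Etf1, the release factor that reads stop codons, was the lowest of them between HC and NC at -0.59. The 6 poly(A)-binding genes and partners had -0.13 and 0.02, and Paip2, an inhibitor of poly(A)-binding protein, read 11.88 in NC and 11.67 in NC+IL6, against 12.47 in HC and 11.80 in HC+IL6.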

How the data were processed

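RNA of RAW264.7 cells, 1 array for each of 4 conditions, was the material. The deposited values are log2 MAS5 signals per probe set, which the authors scaled to a 2% trimmed mean of 500. MAS5 comes from the submitters' processing notes (version not given in the sources used here), and the methods name a smaller array type than the 45101 probe sets in the table imply. Gene names came from the platform annotation, and all 43 members matched RefSeq (GRCm38.p6) by gene number. No deposited value column was left unused.

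The members, factor groups and pathway lists were chosen with earlier results of these data known. The background floor was the 95th percentile of 112 probe sets of 61 tissue-restricted genes (70 listed). A ratio was called at 2-fold, with 1.5-fold beside it, where the brighter array was above its floor and the dimmer was raised to the floor. Genes in full are the 5 highest and 5 lowest members of each comparison, with those whose probe sets differ in sign by over 0.5, and of each pathway list up to 4. Other members are named with their group. With 1 array per condition no test was run.

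Alternatives were quantile and cyclic loess normalization (limma 3.58.1 in R 4.3.3), other floors, a constant added to the signal, the mean over probe sets, leaving out probe sets with suffixed names, and 1.5-fold. Bins of signal level were added after the data were seen. Scripts ran in Python 3.11.15 with numpy 2.4.6 and pandas 2.3.3 and were tested on simulated data.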

Additional observations from a re-analysis of the deposited data

Results flagged for a closer look

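In 2 probe sets that do not represent their gene, the signs of the hypoxia ratios were opposite without and with IL6, and so were those of the IL6 ratios. For Eif4h, 1447070_at read 8.43 in NC and 7.23 in NC+IL6, against 8.03 in HC and 8.80 in HC+IL6. Its hypoxia log2 ratio was -0.40 without and 1.57 with IL6, a difference of 1.97. It was the only probe set of an initiation factor gene past 2-fold in any comparison, and the brightest probe set of Eif4h gave -0.25 and -0.28. For Eif3l, 1437948_x_at read 7.995, 8.40, 8.35 and 7.43, a hypoxia ratio of 0.35 without and -0.97 with IL6, a difference of -1.32. The brightest probe set of Eif3l gave -0.29 and -0.37. With 1 array per condition neither difference was tested.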

How the results depend on the processing

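The eIF2B median kept its sign in both hypoxia comparisons under every alternative run, from -0.64 to -0.69 without IL6 and from -0.30 to -0.38 with it. Other floors and the added constant could hardly change it, because these signals lie far above background. Averaging leaves Eif2b1, Eif2b3 and Eif2b4 as they are, with 1 probe set each. For Eif2b5 it mixes in a probe set under the floor on all arrays, which read 1.54 in NC and 5.18 in HC. Leaving out suffixed probe sets removes Eif2b2 and Eif2b4 from the eIF2B median. Quantile normalization and cyclic loess gave -0.69 and -0.67 without IL6, and -0.30 and -0.34 with it. With cyclic loess, the median between HC and NC was -0.088 for all members and 0.026 for eIF3. The 2-fold count of 0 became 1 lower gene, Eif4a3, between NC+IL6 and NC with the lower floor, and between NC+IL6 and NC and between HC and NC with no floor. That gene was under the floor on all arrays. Averaging all probe sets of a gene, dim ones included, gave 1 lower gene between HC and NC (Eif4h), 1 lower between HC+IL6 and NC+IL6 and 1 lower between HC+IL6 and HC (both Eif3l), and 1 higher between NC+IL6 and NC (Eif3d). It gave eIF3 medians of -0.12 (HC+IL6 over NC+IL6) and 0.078 (HC+IL6 over HC) and an eIF2B median of 0.10 (NC+IL6 over NC). Without suffixed probe sets, which left 34 of 43 genes, Eif4h was 1 gene higher between HC+IL6 and NC+IL6 and 1 lower between NC+IL6 and NC, and the eIF3 medians were -0.10 (HC+IL6 over NC+IL6) and 0.029 (HC+IL6 over HC). At 1.5-fold the counts were 2 higher and 7 lower (HC over NC), 1 higher and 2 lower (HC+IL6 over NC+IL6), and 1 lower for each IL6 comparison. The causes were not tested. No replicate could be left out or used as a block, because each condition had 1 array. The hypoxia ratios without and with IL6 are given side by side, and an additive fit of oxygen and IL6 was not run. Ratios within about 0.3 log2 units are within the spread between probe sets of one gene, and values near the floor carry only a bound.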
